A study of Mus musculus with 12 samples.

Results

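The genes that lie beside En2 on mouse chromosome 5 were compared between En2-/- and wild type (WT) mice. En2 encodes a homeobox transcription factor that patterns the midbrain and the cerebellum. Members were all genes with an array probe placed between 18.5 and 38.5 Mb of chromosome 5 in the mm9 genome build, which is 10 Mb on each side of the En2 probe at 28498468 to 28498528. En2 itself, Reln and genes whose symbols begin with Kcn, Sema, Htr or Adra were left out. This gave 215 of 21147 genes on the array, with 376 probes. The 7 genes left out were Adra2c, En2, Htr5a, Htra3, Kcnh2, Kcnk3 and Reln. The rule uses position and names and no measured value.

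Total RNA of the entire cerebellum and of the entire hippocampus was hybridised to one-colour Agilent arrays, with 3 WT and 3 En2-/- arrays in each tissue. The mice were adult littermates of both sexes, 3 to 5 months old, from matings of heterozygotes. Homozygous mutants (labelled En2KO) carried on both chromosomes the targeted allele that lacks the homeobox domain, and the controls (labelled En2WT) carried no such allele. The founder mutants had a background of 129Sv, C57BL/6 and outbred stock, and at least 5 crosses to C57BL/6 followed. The sex of each mouse was not given in the sources used here. RNA came from whole tissue, so fewer cells of a type and less RNA per cell cannot be told apart in any value.

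A gene altered in embryonic stem cells is passed on together with the stretch of chromosome around it. Crossing to another strain shortens that stretch in each generation but leaves DNA of the stem cell strain next to the altered gene, and littermates without the allele carry the other strain's DNA there. Neighbours of a targeted gene can therefore differ between mutants and controls in strain of origin as well as through the mutation, and a probe can bind less well to a transcript that differs from it in sequence. Which strain each stretch came from was not analysed here, and no value below tells these possibilities apart.

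The En2 probe lies in a part of the transcript that the allele keeps, so it does not check the genotypes. It read 14.06, 13.80 and 14.61 in WT cerebellum and 14.08, 14.81 and 14.50 in En2-/- cerebellum, on the log2 scale of normalized intensity. In the hippocampus it read 7.43, 7.99 and 7.64 in WT and 8.14, 7.04 and 7.21 in En2-/- mice. The genotypes overlapped in both tissues (limma with Benjamini-Hochberg adjustment, adjusted p = 0.837 and 0.711).

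Between 62.3% and 73.0% of the spots on an array were well above background, and none was saturated. All 7 cerebellar markers and all 6 hippocampal markers were well above background on every array of their own tissue. Some markers of other tissue were called, none of them past limma. In En2-/- hippocampus 2 of the cerebellar markers were called higher (Cbln1 and Zic1, log2 fold changes 1.10 and 1.24), and in En2-/- cerebellum the hippocampal marker Fibcd1 was (0.78). In the cerebellum, 3 of 6 choroid plexus markers were called higher in En2-/- mice, and the mean over the list was 11.1 to 11.4 on the En2-/- arrays and 10.6 to 10.9 on the WT arrays. In the hippocampus that mean ran from 8.83 to 13.0 in En2-/- and from 10.9 to 12.4 in WT mice, with 2 of 6 markers called lower. Thalamic markers averaged 10.5 to 10.9 in En2-/- and 9.76 to 10.2 in WT hippocampus, with 1 of 6 called. Midbrain dopaminergic markers averaged 7.95 to 10.2 in En2-/- and 7.98 to 8.60 in WT cerebellum, with 2 of 5 called higher. All 12 arrays lay on 3 slides, each slide held 1 array of each of the 4 groups, and each group always had the same position on the slide, so that position and group cannot be told apart.

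Each expression value below belongs to a probe of 60 bases. The first 30 bases of the probes on which the results turn are given here from 5′ to 3′, with mm9 positions, because a change read by a single short probe is a change at that stretch of transcript. No base is in capitals, since none was singled out. First come the probes of the 2 members called higher in both tissues. Gm5067 has 1 probe (chr5:26337905-26337964, plus strand), and Abhd1 has its brighter probe at chr5:31257402-31257461 and a dimmer one at chr5:31256786-31256925, both on the plus strand.
Gm5067: ggctgctattctatattccaagcatctagc
Abhd1, brighter probe: aggactgctgggctttcggttcaattgttt
Abhd1, dimmer probe: agccaattgaaaaggtgttggatgtagact

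Slc5a1, lower in the cerebellum, has probes at chr5:33504352-33504411 and chr5:33504561-33504620, on the plus strand. Jakmip1, lower in both tissues, has its brightest probe at chr5:37514566-37516159 (a span longer than the 60 bases of the probe), a second at chr5:37493010-37493069 and another at chr5:37483145-37483204, on the plus strand. They are shown because the Slc5a1 probes moved together and the Jakmip1 probes did not.
Slc5a1, brighter probe: acctgaagtgtcttagccactcaggaatgt
Slc5a1, dimmer probe: gacacacaatacagtcttagacgttgacac
Jakmip1, brightest probe: ggacctgctggagaagatttacagactgga
Jakmip1, second probe: catatggatgagcgagatgtgaggcgattt
Jakmip1, other probe: gcaggagatacagcccctttattcacttga

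The last set fell toward the lower end of the scale in En2-/- mice, which for Kmt2e refers to the hippocampus. It holds a dim Kmt2e probe (chr5:22999891-22999950, plus strand) and a probe of a transcript without a gene name, NAP045951-1 (chr5:22030301-22030360, minus strand).
Kmt2e, dim probe: gaggaagatcagtgttacatcagattttat
NAP045951-1: aggttcttcagtggttatgtttcaaatgct

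The brightest probe stood for each gene. Testing a gene in a tissue required signal well above background from this probe throughout 1 genotype or both, a condition met by 185 of the 215 members in the cerebellum and 175 in the hippocampus. All 175 were among the 185, and the other 30 members were tested in neither tissue. A member was called when the study's own test, the rank product over the 9 ratios of an En2-/- to a WT array, gave an uncorrected permutation P under 0.01 in the cerebellum or under 0.005 in the hippocampus. Beside it stands limma, a linear model with an adjusted p limit of 0.05 over all genes tested.

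In the cerebellum, 17 of 185 members were called, 11 higher and 6 lower in En2-/- mice. The largest rises were those of Gm5067, a pseudogene in RefSeq (9.03-fold), Ucn, the neuropeptide urocortin (4.38-fold), and Abhd1, which RefSeq lists as a transcribed pseudogene of an alpha/beta hydrolase (3.40-fold). The largest falls were those of Slc5a1, the sodium and glucose cotransporter (2.92-fold), Psapl1, a relative of the saposin precursor (2.87-fold), and Spon2, a spondin of the extracellular matrix (2.48-fold). The size of a fold among dim probes depended on the background treatment. With normexp background correction, which adds an offset of 50 to each signal, the log2 fold change of Gm5067 was 1.51 in place of 3.18, that of Ucn 0.94 in place of 2.13 and that of Abhd1 1.71 in place of 1.77, and the deposited log2 values gave 1.51, 0.94 and 1.67. All 7 called members on the side of lower coordinates were higher in En2-/- mice. The 10 on the other side were 4 higher and 6 lower.

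The 17 members made 9.19% of those tested, where 5.03% of all 15595 genes tested in the cerebellum were called. For rises the counts were 11 of 185 members against 2.39% of all genes, and for falls 6 of 185 against 2.64%. Elsewhere on chromosome 5, 50 of 794 genes were called (6.30%). By limma 2 members passed, Gm5067 and Slc5a1, where 0.66% of all genes did. Unadjusted limma p was under 0.05 for 27 members (14.6%) and for 9.30% of all genes. Changes over 2-fold were seen in 13 members (7.03%) and in 2.87% of all genes, while the median absolute log2 fold change was smaller among members, 0.16 against 0.20. No test of members against other genes was run.

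**Figure D1:**
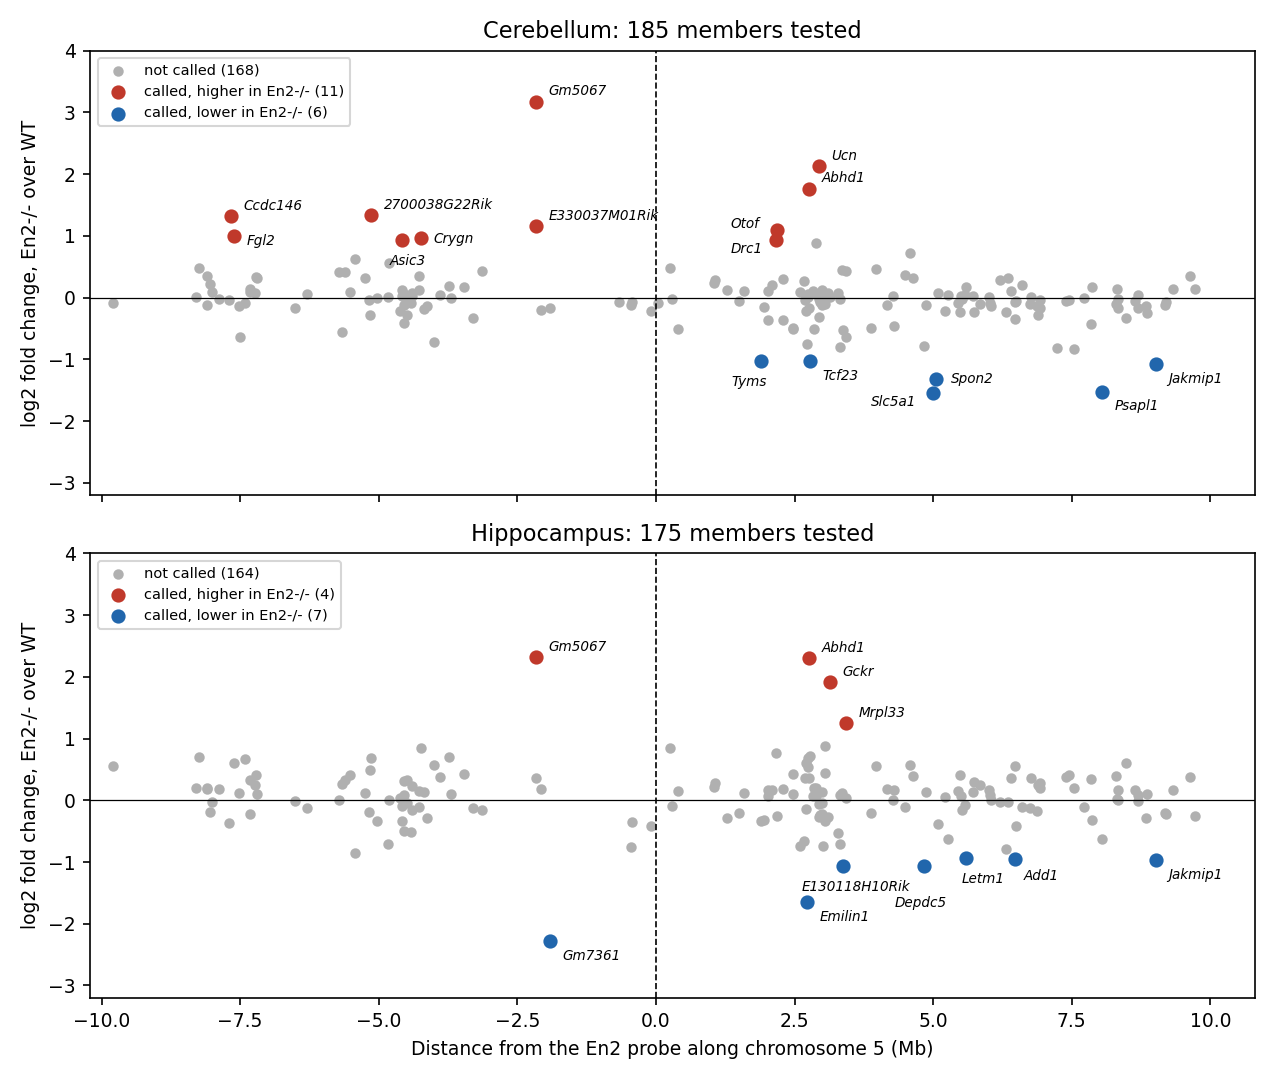
Log2 fold change (En2-/- over WT, vertical axis) of each tested member against the distance of its brightest probe from the En2 probe in Mb (horizontal axis, dashed line at En2), with the cerebellum above and the hippocampus below. Coloured points were called by the rank product (cerebellum 11 higher and 6 lower, hippocampus 4 higher and 7 lower), and no called member lies between -1.91 and 1.89 Mb except at those ends.

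Among the transcripts that RefSeq does not list as protein coding, Gm5067 read 3.90, 4.93 and 3.88 in WT cerebellum and 7.65, 7.17 and 7.42 in En2-/- cerebellum. Every En2-/- array was far above every WT array, and the WT signal of Gm5067 was well above background on 2 of 3 arrays (log2 fold change 3.18, SE 0.31, limma adjusted p = 0.00411). Within the slides its difference was 3.75, 2.24 and 3.54. E330037M01Rik, whose probe lies 4575 bases from that of Gm5067, read 7.62, 8.30 and 7.93 in WT and 9.43, 8.97 and 8.93 in En2-/- cerebellum, without overlap (log2 fold change 1.16, SE 0.24, limma adjusted p = 0.119). The long noncoding RNA 2700038G22Rik read 5.32, 5.55 and 5.56 in WT and 6.59, 6.63 and 7.22 in En2-/- cerebellum, again without overlap (log2 fold change 1.33, SE 0.23, limma adjusted p = 0.0534).

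The hydrolase relative Abhd1 read 9.51, 9.46 and 9.95 in WT and 11.82, 10.78 and 11.63 in En2-/- cerebellum. The groups did not overlap, with a log2 fold change of 1.77 (SE 0.30, limma adjusted p = 0.0536), and the within-slide differences were 2.31, 1.31 and 1.68. Ucn read 5.15, 5.44 and 3.80 in WT, where 2 of 3 arrays were well above background, and 6.41, 7.30 and 7.08 in En2-/- cerebellum (log2 fold change 2.13, SE 0.44, limma adjusted p = 0.105). The thymidylate synthase gene Tyms read 8.65, 8.38 and 9.07 in WT and 8.34, 7.21 and 7.49 in En2-/- cerebellum, so that the highest mutant array nearly reached the lowest control (log2 fold change -1.02, SE 0.32, limma adjusted p = 0.351). Its probe shares a run of 20 bases with a probe of another gene. Psapl1 read 7.50, 7.83 and 6.69 in WT and 6.62, 5.44 and 5.41 in En2-/- cerebellum, likewise nearly touching (log2 fold change -1.52, SE 0.40, limma adjusted p = 0.238).

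Slc5a1 was the member with the firmest fall. It read 8.06, 7.69 and 7.74 in WT and 6.03, 6.43 and 6.40 in En2-/- cerebellum, the groups lying far apart for their spread (log2 fold change -1.54, SE 0.21, limma adjusted p = 0.0197). Its second probe read 7.63, 7.85 and 7.98 in WT and 5.77, 6.53 and 5.94 in En2-/- cerebellum (log2 fold change -1.74, SE 0.26, limma adjusted p over all probes = 0.034). In the hippocampus neither Slc5a1 probe was well above background on any array. Spon2, whose probe lies close by, read 6.07, 5.50 and 6.37 in WT and 5.17, 3.96 and 4.88 in En2-/- cerebellum, without overlap (log2 fold change -1.31, SE 0.35, limma adjusted p = 0.250).

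Of the genes of neurons, Jakmip1, whose product binds Janus kinases and microtubules, was lower. It read 10.60, 10.37 and 9.99 in WT and 9.32, 9.12 and 9.29 in En2-/- cerebellum, again without overlap (log2 fold change -1.08, SE 0.21, limma adjusted p = 0.0946). Asic3, an acid-sensing ion channel, read 3.79, 3.88 and 3.14 in WT, where 1 of 3 arrays was well above background, and 4.56, 4.36 and 4.71 in En2-/- cerebellum (log2 fold change 0.94, SE 0.24, limma adjusted p = 0.226). The synaptic vesicle protein gene Otof read 6.32, 6.72 and 5.21 in WT and 6.78, 7.47 and 7.30 in En2-/- cerebellum, the groups almost touching (log2 fold change 1.10, SE 0.39, limma adjusted p = 0.412). The other Otof probe tested had a log2 fold change of 0.04.

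Drc1 and Ccdc146 encode proteins of cilia and centrioles. Drc1, a part of the complex that regulates dynein in motile cilia, read 11.29, 11.27 and 11.37 in WT and 12.26, 12.08 and 12.39 in En2-/- cerebellum, far apart for the spread within each group (log2 fold change 0.93, SE 0.18, limma adjusted p = 0.0852). Ccdc146 read 2.93, 2.97 and 3.93 in WT, on no array well above background, and 4.59, 4.61 and 4.58 in En2-/- cerebellum, on all 3 well above it, which is at least 1.99-fold higher in the processed signal (limma adjusted p = 0.131). That bound holds for this signal alone, since Ccdc146 had a log2 fold change of 0.25 with normexp correction, 0.26 in the deposited log2 values and 0.71 as the mean over probes, with no call in any of them. Ciliated choroid plexus is attached to the cerebellum, and its markers were higher on the same En2-/- arrays, as given above. Their part in the Drc1 and Ccdc146 values was not tested.

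The remaining calls were Fgl2, Crygn and Tcf23. Fgl2, a fibrinogen-like protein of immune cells, read 5.99, 6.44 and 6.95 in WT and 7.65, 7.19 and 7.51 in En2-/- cerebellum (log2 fold change 0.99, SE 0.28, limma adjusted p = 0.264). Crygn, a crystallin, read 5.70, 4.95 and 5.81 in WT and 6.36, 6.65 and 6.32 in En2-/- cerebellum (log2 fold change 0.96, SE 0.26, limma adjusted p = 0.258). Tcf23, a helix-loop-helix protein, read 7.10, 6.75 and 7.67 in WT and 6.25, 5.88 and 6.31 in En2-/- cerebellum (log2 fold change -1.02, SE 0.27, limma adjusted p = 0.233). None of the 17 called members had overlapping groups. A rank product call over all 9 ratios favours such genes, and their share over all genes was not counted.

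With normexp correction 12 of the 17 called members kept their call, and the same 12 did in the deposited log2 values. The log2 fold changes of the called members were close in both, so the deposited values are not a separate check. The 5 that lost it both times were Asic3 (log2 fold change 0.18 with normexp correction), Ccdc146 (0.25), Crygn (0.45), Spon2 (-0.50) and Tcf23 (-0.58). The fold moved by over 1.5 times in 8 of the 17.

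With any 1 of the 6 cerebellar arrays left out, between 15 and 19 members were called, and 10 of the 17 kept their call every time. Fgl2 lost it without WT replicate 1 (log2 fold change 0.75). Crygn and Drc1 lost it without WT replicate 2 (0.69 and 0.91). Without WT replicate 3, Asic3 (0.71), Otof (0.66), Tcf23 (-0.77) and Tyms (-0.83) lost theirs. Tcf23 and Tyms also did without En2-/- replicate 2 (-0.89 and -0.78), as did Asic3 and Tyms without En2-/- replicate 3 (0.85 and -0.93). Of the limma calls, Gm5067 passed in each of these fits. Gm5067 entered the test through its En2-/- arrays, since its WT signal was not well above background on every array. The fits kept that set of genes, and without the filter on dim probes Gm5067 did not pass (limma adjusted p = 0.0552). Slc5a1 passed without WT replicate 3 but not without any of the other 5 arrays, its adjusted p lying between 0.0400 and 0.0935. With normexp background correction its log2 fold change was -0.93 and it did not pass limma (adjusted p = 0.0598).

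**Figure D2:**
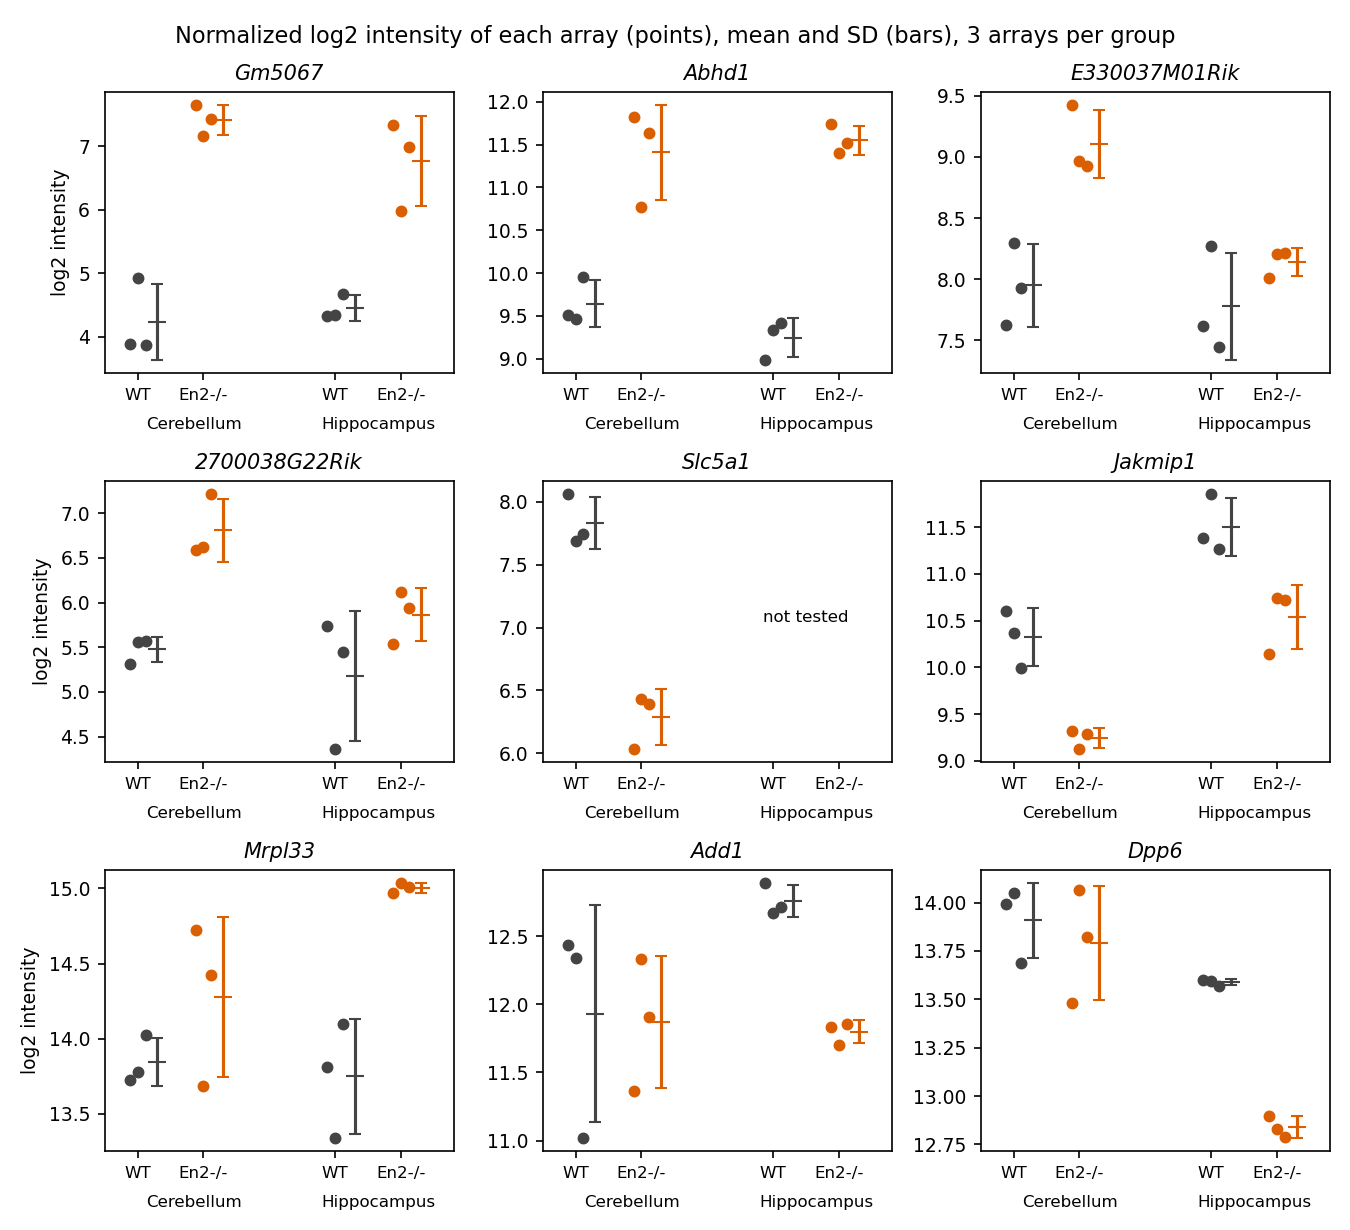
Normalized log2 intensity (vertical axis) of 9 members on each array, WT in grey and En2-/- in orange, with the cerebellum on the left and the hippocampus on the right of each panel; points are single arrays in the order of their replicate numbers, and bars are the mean and SD of 3 arrays. Gm5067, Abhd1 and Jakmip1 have separate groups in both tissues, and Slc5a1 was not tested in the hippocampus.

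In the hippocampus, 11 of 175 members were called, 4 higher and 7 lower in En2-/- mice. Gm5067 (4.97-fold) and Abhd1 (4.95-fold) rose again, joined by Gckr, the regulatory protein of glucokinase (3.78-fold), and Mrpl33, a protein of the mitochondrial ribosome (2.38-fold). Among the falls were Emilin1, a glycoprotein of elastic fibres, Depdc5, part of the complex that restrains mTORC1 (2.08-fold), Jakmip1 (1.96-fold) and Add1, the actin-capping alpha-adducin (1.94-fold). With normexp background correction the log2 fold change of Gm5067 was 1.02 in place of 2.31 (limma adjusted p = 0.0594), that of Gckr 1.19 in place of 1.92 and that of Abhd1 2.16 in place of 2.31. No called member lay farther than 5 Mb on the side of lower coordinates.

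The 11 members made 6.29% of those tested, where 4.16% of all 14972 genes tested in the hippocampus were called. Rises were 4 of 175 members against 1.83% of all genes, and falls 7 of 175 against 2.33%. Elsewhere on chromosome 5, 41 of 756 genes were called (5.42%). By limma 5 members passed (Abhd1, Gm5067, Add1, Depdc5 and Mrpl33), where 1.34% of all genes did. Unadjusted limma p was under 0.05 for 30 members (17.1%), a smaller share than the 19.5% of all genes. Changes over 2-fold were seen in 8 members (4.57%) and in 3.69% of all genes, and the median absolute log2 fold change stood at 0.25 among members and 0.26 over all genes.

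Abhd1 read 8.98, 9.34 and 9.41 in WT and 11.74, 11.40 and 11.52 in En2-/- hippocampus, every mutant array being far above every control. Its log2 fold change was 2.31 (SE 0.19, limma adjusted p = 0.00233), and 2.75, 2.06 and 2.11 within the slides. Gm5067 read 4.33, 4.34 and 4.68 in WT, well above background on 2 of 3 arrays, and 7.34, 5.98 and 6.99 in En2-/- hippocampus, also without overlap (log2 fold change 2.31, SE 0.34, limma adjusted p = 0.0254, within slides 3.00, 1.63 and 2.31). Gckr read 5.04, 5.80 and 6.83 in WT and 8.27, 7.05 and 8.11 in En2-/- hippocampus, where the spread within each group was wide (log2 fold change 1.92, SE 0.48, limma adjusted p = 0.110).

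For the mitochondrion, Mrpl33 read 13.81, 13.34 and 14.10 in WT and 14.97, 15.03 and 15.01 in En2-/- hippocampus, the mutant arrays lying close together (log2 fold change 1.25, SE 0.21, limma adjusted p = 0.0431). Letm1, a cation carrier of the inner mitochondrial membrane, read 6.30, 6.69 and 6.68 in WT and 6.07, 5.26 and 5.55 in En2-/- hippocampus (log2 fold change -0.93, SE 0.24, limma adjusted p = 0.116). The 2 mitochondrial genes thus went in opposite directions.

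Lower in the mutants were the cytoskeletal genes Add1 and Jakmip1. Add1 read 12.89, 12.67 and 12.71 in WT and 11.84, 11.70 and 11.86 in En2-/- hippocampus, with little spread in either group (log2 fold change -0.96, SE 0.16, limma adjusted p = 0.0375). Jakmip1 read 11.39, 11.86 and 11.27 in WT and 10.14, 10.75 and 10.72 in En2-/- hippocampus (log2 fold change -0.97, SE 0.24, limma adjusted p = 0.108). Depdc5 read 10.62, 10.57 and 10.34 in WT and 9.34, 9.35 and 9.66 in En2-/- hippocampus (log2 fold change -1.06, SE 0.17, limma adjusted p = 0.0376), while another of its probes had a log2 fold change of -0.06. The mean over all Depdc5 probes gave 0.073 and no call, which turns the direction. It takes in every probe of the gene, also those without signal well above background.

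Dim or uneven values stand behind the other falls. Emilin1 read 5.82, 5.37 and 5.60 in WT and 4.67, 3.06 and 4.12 in En2-/- hippocampus, on no mutant array well above background, so it was at least 1.85-fold lower in the processed signal (limma adjusted p = 0.0929). With normexp correction Emilin1 had -0.48 and in the deposited log2 values -0.46, below that bound and without a call. E130118H10Rik read 4.43, 5.38 and 4.55 in WT and 3.74, 3.48 and 3.95 in En2-/- hippocampus, also on no mutant array well above background, which bounds its fall at 1.05-fold or more (limma adjusted p = 0.116). Gm7361 read 7.42, 6.99 and 6.49 in WT and 1.91, 5.74 and 6.40 in En2-/- hippocampus, where replicate 1 alone was at the lower end of the scale (log2 fold change -2.28, SE 1.03, limma adjusted p = 0.271). Its fold change without that array was -0.90, with no call. The Gm7361 probe shares a run of 20 bases with a probe of another gene. None of the 11 called members had overlapping groups. The call favours such genes here too, and their share over all genes was not counted.

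With normexp correction 8 of the 11 called members kept their call, and the same 8 did in the deposited log2 values. Here too the log2 fold changes were close in both, so the deposited values are not a separate check. Those that lost it both times were Emilin1, E130118H10Rik (log2 fold change -0.24 with normexp correction) and Letm1 (-0.43). The fold moved by over 1.5 times in 5 of the 11.

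With any 1 of the 6 hippocampal arrays left out, between 7 and 9 members were called, and 5 of the 11 kept their call every time. Add1 lost it in all 6 of these fits, with log2 fold changes from -1.0 to -0.89. Depdc5 lost it without WT replicates 1 and 2 and En2-/- replicates 1 and 2 (-1.03 to -1.0). Jakmip1 lost it without WT replicate 2 (-0.79), En2-/- replicate 1 (-0.77) or En2-/- replicate 3 (-1.06). Letm1 lost it without WT replicate 2 (-0.87), WT replicate 3 (-0.87), En2-/- replicate 2 (-0.75) or En2-/- replicate 3 (-0.89). E130118H10Rik did so without WT replicate 2 (-0.77) or En2-/- replicate 2 (-0.94). By limma Abhd1 passed in each of the 6 fits, and Add1 and Depdc5 in none of them. Mrpl33 passed only without WT replicate 3. Gm5067 passed in 3 of them, not without WT replicates 1 and 2 or En2-/- replicate 3, with adjusted p from 0.00334 to 0.133. Here too Gm5067 entered the test through its En2-/- arrays, and without the filter on dim probes it did not pass (limma adjusted p = 0.0861).

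Values in both tissues were then set side by side. Of the 215 members, 25 were called in at least 1 tissue and 3 in both, each in 1 direction: Gm5067 and Abhd1 higher and Jakmip1 lower. Over all 14685 genes tested in both tissues, 1.17% were called in both in the same direction. The groups of both tissues were separate arrays, but which cerebellum and hippocampus came from 1 mouse was not given in the sources used here.

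Of the 12 cerebellar calls that were also tested in the hippocampus, 10 had the same sign there, and of the 11 hippocampal calls 10 had the same sign in the cerebellum. The 3 members called in both tissues count in both numbers. Counted once each, 17 of 20 members had the same sign. The matching share over all called genes was not counted, so this is no result about the members. Drc1 rose by 0.93 in the cerebellum and had a log2 fold change of 0.77 in the hippocampus, with overlapping groups (limma adjusted p = 0.216). Crygn had 0.84, 2700038G22Rik 0.68, Fgl2 0.60 and E330037M01Rik 0.37 in the hippocampus, none of them called. Gckr, called in the hippocampus, had a log2 fold change of 0.00 in the cerebellum, where it read 6.75, 7.0 and 8.12 in WT and 7.41, 7.14 and 7.33 in En2-/- mice. Tcf23 was lower in the cerebellum (-1.02), while its hippocampal log2 fold change was 0.72 with 1 of 3 mutant arrays standing at 8.22.

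The difference between the tissues itself was tested as an interaction in limma over all 12 arrays. No member passed at an adjusted p of 0.05, where 0.116% of all genes did, and 20 of 175 members (11.4%) had an unadjusted p under 0.05, close to the 11.9% of all genes. The lowest adjusted p among members was 0.145, for the splicing factor kinase Srpk2, with log2 fold changes of 0.63 in the cerebellum and -0.86 in the hippocampus. Srpk2 read 12.17, 12.34 and 12.61 in WT and 12.63, 13.36 and 13.01 in En2-/- cerebellum, and 12.26, 12.65 and 12.48 in WT and 11.56, 11.79 and 11.47 in En2-/- hippocampus. It was called in neither tissue. For Gm5067 the tissues differed by 0.86 (SE 0.49, limma adjusted p = 0.489), for Abhd1 by -0.54 (SE 0.37, limma adjusted p = 0.551) and for Jakmip1 by -0.11 (SE 0.32, limma adjusted p = 0.902).

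Across the 175 members tested in both tissues, Pearson's r between the log2 fold changes was 0.44. Without Gm5067 and Abhd1 it was 0.26 over 173 members, and over all 14685 genes it was 0.28. These points are genes measured on the same arrays and are not independent, so no p is given.

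**Figure D3:**
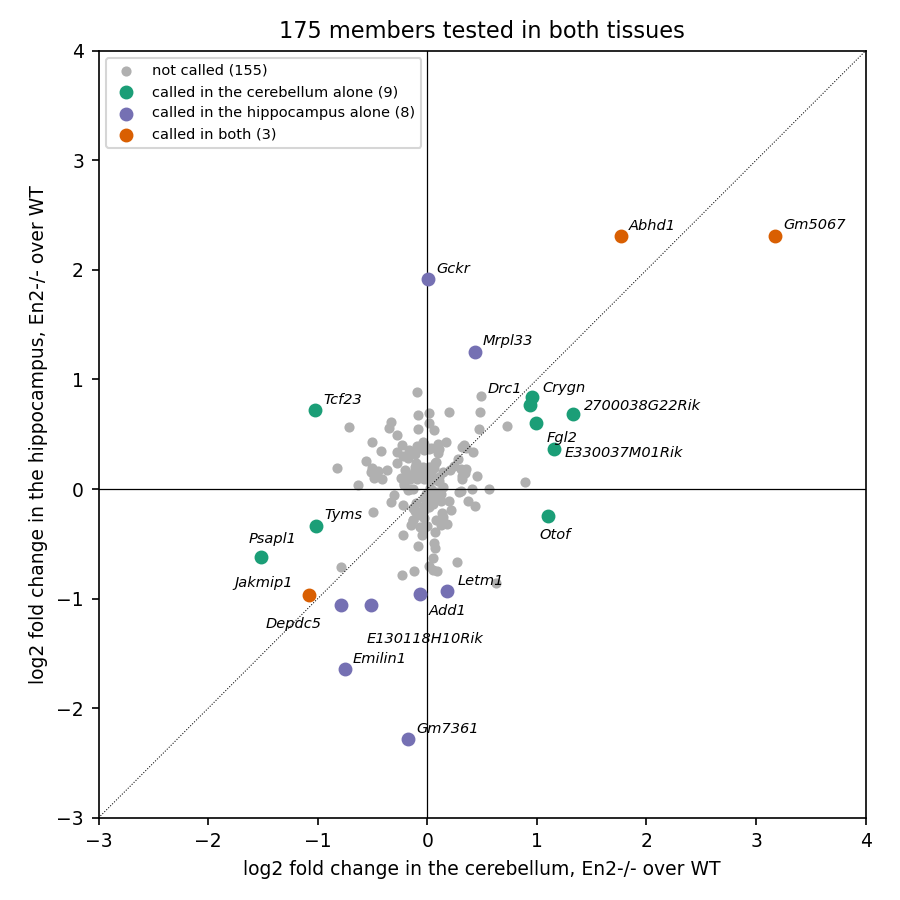
Log2 fold change (En2-/- over WT) of 175 members in the cerebellum (horizontal axis) against the hippocampus (vertical axis), coloured by the tissue in which the rank product called them, with the dotted line marking equal change. Gm5067, Abhd1 and Jakmip1 were called in both, while Gckr and Gm7361 lie near 0 in the cerebellum.

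The next question was whether changes gathered near En2. The 3 tested members nearest to its probe on each side were described whatever their values, and none of them was called. On the side of lower coordinates were Insig1, which holds back sterol synthesis, Paxip1, a DNA damage response protein, and Dpp6, an auxiliary subunit of potassium channels. Their log2 fold changes were -0.22, -0.07 and -0.12 in cerebellum, against -0.42, -0.35 and -0.75 in hippocampus. On the other side were Cnpy1, Rbm33 and Shh, the hedgehog morphogen, with -0.09, 0.49 and -0.03 in the cerebellum. Cnpy1 was not tested in the hippocampus, where Rbm33 had 0.85 and Shh -0.09.

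Dpp6 had the steadiest values of these. It read 13.60, 13.60 and 13.57 in WT and 12.90, 12.83 and 12.79 in En2-/- hippocampus, groups far apart for their spread, without a call and with a limma adjusted p of 0.0613 (SE 0.15). A dimmer Dpp6 probe, nearer to the start of the gene, read 5.22, 5.60 and 5.64 in WT and 7.14, 6.95 and 6.21 in En2-/- hippocampus, which is the opposite direction (log2 fold change 1.28, SE 0.27, limma adjusted p over all probes = 0.0582). In the cerebellum the groups of both Dpp6 probes overlapped.

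The called members nearest to En2 were Gm7361 at -1.91 Mb in the hippocampus and Tyms at 1.89 Mb in the cerebellum. In the 3.8 Mb between them no member was called, among 13 tested in the cerebellum and 11 in the hippocampus. Beyond it, in the 1.26 Mb from Drc1 (2.17 Mb) to Mrpl33 (3.43 Mb), 5 of 40 members were called in the cerebellum (12.5%) and 5 of 38 in the hippocampus (13.2%). They were Drc1, Otof, Abhd1, Tcf23 and Ucn in the cerebellum and Emilin1, Abhd1, Gckr, E130118H10Rik and Mrpl33 in the hippocampus, so 9 of 40 were called in at least 1 tissue. Outside that stretch it was 12 of 145 (8.28%) and 6 of 137 (4.38%), and over all genes tested 5.03% and 4.16%. Both stretches were picked with the values in view, so they carry no test.

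By segment, the cerebellar calls were 3 of 31 members from -10 to -5 Mb, 4 of 34 from -5 Mb to En2, 6 of 65 from En2 to 5 Mb and 4 of 55 from 5 to 10 Mb. All 4 in the last segment (Slc5a1, Spon2, Psapl1 and Jakmip1) were lower. The hippocampal calls were 0 of 29, 2 of 32, 6 of 62 and 3 of 52, and all 3 in the last segment (Letm1, Add1 and Jakmip1) were lower. Over all genes tested, 5.03% were called in the cerebellum and 4.16% in the hippocampus.

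Members within 5 Mb of En2 were called in 10 of 99 cases in the cerebellum (10.1%) and 8 of 94 in the hippocampus (8.51%). Farther members were called in 7 of 86 (8.14%) and 3 of 81 cases (3.70%). Within 2.5 Mb it was 5 of 28 (17.9%) and 2 of 25 (8.0%). Over all genes tested the shares were 5.03% and 4.16%, and over the rest of chromosome 5 they were 6.30% and 5.42%. Among the 5 cerebellar calls were Gm5067 and E330037M01Rik, with probes 4575 bases apart, and Drc1 and Otof, with probes 3656 bases apart. The median absolute log2 fold change of cerebellar values was 0.18 near and 0.14 far, that of hippocampal values 0.28 near and 0.22 far, and the difference between near and far was not tested. The hippocampal order turned in 3 settings: with each array scaled to its 75th percentile (0.31 near and 0.32 far), without En2-/- replicate 1 (0.255 near and 0.257 far), and with members within 2.5 Mb set against those from 2.5 to 5 Mb (0.27 near and 0.29 far). Spearman's rho of the absolute log2 fold change with distance was -0.09 over 185 members in the cerebellum and -0.14 over 175 in the hippocampus, descriptions over genes of the same arrays.

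**Figure D4:**
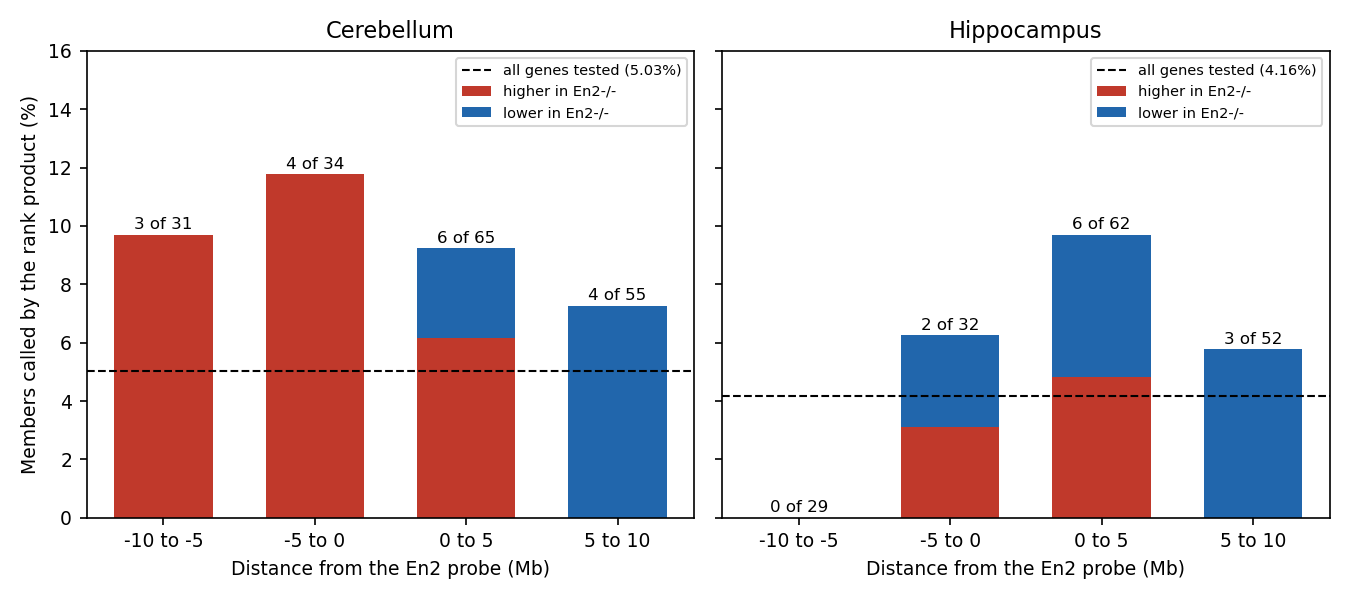
Share of tested members called by the rank product (vertical axis, percent) in 4 segments of distance from the En2 probe (horizontal axis, Mb), split by direction, with the called and tested numbers above each bar and the share over all genes tested as a dashed line (5.03% in the cerebellum, 4.16% in the hippocampus). Bars below En2 in the cerebellum hold rises only, and those from 5 to 10 Mb hold falls only in both tissues.

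The tested genes at the ends of the window were read as well. Just inside were 4921504A21Rik at the lower end (log2 fold change -0.08 in cerebellum, 0.55 in hippocampus) and Msx1, a homeobox gene, at the upper end (0.14 and -0.26). Just outside were Scp2d1 (-0.88 and 1.83) and Stx18, a syntaxin (-0.04 and 0.17). Scp2d1 was called higher in the hippocampus, and none of the others was called.

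Members were also grouped by role, to be read against the shares of all genes called (5.03% in cerebellum and 4.16% in hippocampus). Of 22 neuronal and synaptic members, 2 were called higher (Asic3 and Otof) and 1 lower (Jakmip1) among 22 tested in the cerebellum, and 2 lower (Add1 and Jakmip1) among 21 in the hippocampus. The list had a median log2 fold change of 0.01 in cerebellum and -0.20 in hippocampus, where all genes had medians of -0.03 and 0.05. Of 13 members for hedgehog signalling and cilia, a list that also holds the centromere gene Cenpa and the DNA repair gene Babam2, Drc1 was called in the cerebellum, with none called in hippocampus (medians 0.01 and 0.18 over 12 tested). Ift172, a carrier protein of cilia, had -0.04 and 0.43, Cenpa -0.50 and 0.43, and Babam2 -0.49 and -0.21.

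Of 19 metabolic members, a list that also holds the neuropeptide Ucn and the transcribed pseudogene Abhd1, 2 of 18 were called in the cerebellum (Abhd1 and Ucn) and 2 of 17 in the hippocampus (Abhd1 and Gckr), all higher (2.39% and 1.83% of all genes were called higher), with medians of 0.01 and 0.18. Khk, which phosphorylates fructose, read 10.62, 10.76 and 10.99 in WT and 11.57, 11.34 and 11.53 in En2-/- hippocampus without a call (log2 fold change 0.69, SE 0.17, limma adjusted p = 0.108). Its cerebellar log2 fold change was 0.01, with 1 mutant array missing after an outlier flag. Among 11 mitochondrial members, none was called in the cerebellum, whereas Mrpl33 and Letm1 were called in the hippocampus (medians 0.10 and 0.08). Pisd, which makes phosphatidylethanolamine, had 0.73 and 0.58, and Hadha, of fatty acid oxidation, had -0.15 and -0.33. Among 9 transporters, Slc5a1 was called among 8 tested in the cerebellum, and none of 7 was called in the hippocampus (medians 0.09 and 0.07). Mfsd10 had -0.35 and 0.55, Slc4a1ap 0.46 and 0.12, and the vesicular zinc transporter Slc30a3 0.89 and 0.07.

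In 22 members for chromatin, transcription and DNA repair, Tcf23 was the single call among 21 tested in the cerebellum, and none was called in the hippocampus (medians -0.03 and -0.01). Kmt2e, of the trithorax family, had 0.09 and 0.41, and Supt7l, of a histone acetylation complex, -0.79 and -0.71. None of 17 members for translation, RNA and protein folding was called in either tissue (medians 0.05 and 0.09), and 5 of them had an unadjusted limma p under 0.05 in the hippocampus, where 19.5% of all genes did. The phosphatase gene Ppm1g read 11.94, 11.72 and 11.75 in WT and 11.03, 11.09 and 11.10 in En2-/- hippocampus, without overlap (log2 fold change -0.73, SE 0.15, limma adjusted p = 0.0732), and Abcf2 had -0.09 and -0.52. These lists were drawn up with results of these data known, and no list was tested.

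Genes with several probes allowed a check of each change along the transcript, since 106 members had more than 1. In a limma fit over all probes, 4 of 302 member probes passed in the cerebellum, among 153 of 27416 in all, and 11 of 278 in the hippocampus, among 544 of 25666. Both Abhd1 probes moved alike. The dimmer one read 8.11, 7.88 and 8.10 in WT and 10.46, 9.53 and 10.42 in En2-/- cerebellum (log2 fold change 2.11, SE 0.29, limma adjusted p = 0.0254). In the hippocampus it read 7.78, 7.59 and 7.93 in WT and 10.47, 9.85 and 10.14 in En2-/- mice (log2 fold change 2.38, SE 0.21, limma adjusted p = 0.00297). Called members with more than 1 tested probe numbered 9 in the cerebellum, of which 8 had 1 sign over their probes, and 3 in the hippocampus, of which 2 did. Fewer agreed in size. All other tested probes showed most of the change of the brightest probe in 6 of the 9 and in 1 of the 3. The matching shares among members that were not called were not counted, so these counts are no result about the called members.

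The probes of Jakmip1 differed from each other. Its second probe had a log2 fold change of -0.22 in the cerebellum and -1.33 in the hippocampus (SE 0.33, limma adjusted p = 0.0877), and the other probe shown above 0.11 and 0.83. A further Jakmip1 probe, at chr5:37477685-37477744, is not described here but enters the mean over probes. With the mean over probes in place of the brightest probe, Jakmip1 had -0.25 and -0.29 and was called in neither tissue. Fgl2 had a second probe with 1.08 in the cerebellum, close to the first, but -1.55 in the hippocampus, where En2-/- replicate 1 read 1.91 and the other mutant arrays 6.74 and 7.93. The second Psapl1 probe had -0.56 in the cerebellum, and the second Tyms probe -0.88.

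Some probes changed while the brightest probe of their gene did not. The dim Kmt2e probe read 5.30, 5.86 and 5.52 in WT and 3.07, 1.94 and 1.99 in En2-/- hippocampus, on no mutant array well above background, which is at least 1.81-fold lower in the processed signal (limma adjusted p = 0.00557). With normexp correction it had -0.66 and did not pass (limma adjusted p = 0.0618). In the cerebellum it had a log2 fold change of -0.78. A dim Xrcc2 probe (a recombination repair gene) read 4.15, 4.24 and 4.23 in WT, on no array well above background, and 5.42, 5.53 and 5.39 in En2-/- hippocampus, at least 2.02-fold higher in the processed signal (limma adjusted p = 0.0127), while its brightest probe had -0.12. With normexp correction the dim Xrcc2 probe had 0.37 and did not pass (limma adjusted p = 0.179).

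A dim probe of Psmc2, an ATPase of the proteasome, read 6.32, 5.90 and 5.61 in WT and 7.40, 7.43 and 7.27 in En2-/- hippocampus, without overlap (log2 fold change 1.42, SE 0.22, limma adjusted p = 0.0235), against 0.09 for its brightest probe. A dimmer Agap3 probe had -1.26 in the hippocampus (limma adjusted p = 0.0365) against -0.05, and a dimmer Dok7 probe had 1.09 (limma adjusted p = 0.0387) against 0.29. The probes of Psmc2, Agap3 and Dok7 passed with normexp correction too, with 0.83, -1.19 and 1.03. These 5 genes were therefore not called, although 1 of their probes passed.

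The unnamed NAP045951-1 probe, 6.47 Mb from En2 on the side of lower coordinates, also fell in the cerebellum. It read 4.82, 5.11 and 4.81 in WT and 1.98, 1.87 and 1.87 in En2-/- cerebellum, on no mutant array well above background, so it was at least 2.21-fold lower in the processed signal (limma adjusted p = 0.000811). With normexp correction NAP045951-1 had -0.59 and did not pass (limma adjusted p = 0.243). In the hippocampus it read 4.29, 4.16 and 3.61 in WT, where 1 array was well above background, and 1.95, 1.93 and 1.87 in En2-/- mice, and it was not tested there. All 6 mutant arrays thus read under 2, at the lower end of the normalized scale. It was 1 of 22 unnamed probes of the window tested in the cerebellum, and none of 14 passed in the hippocampus.

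**Figure D5:**
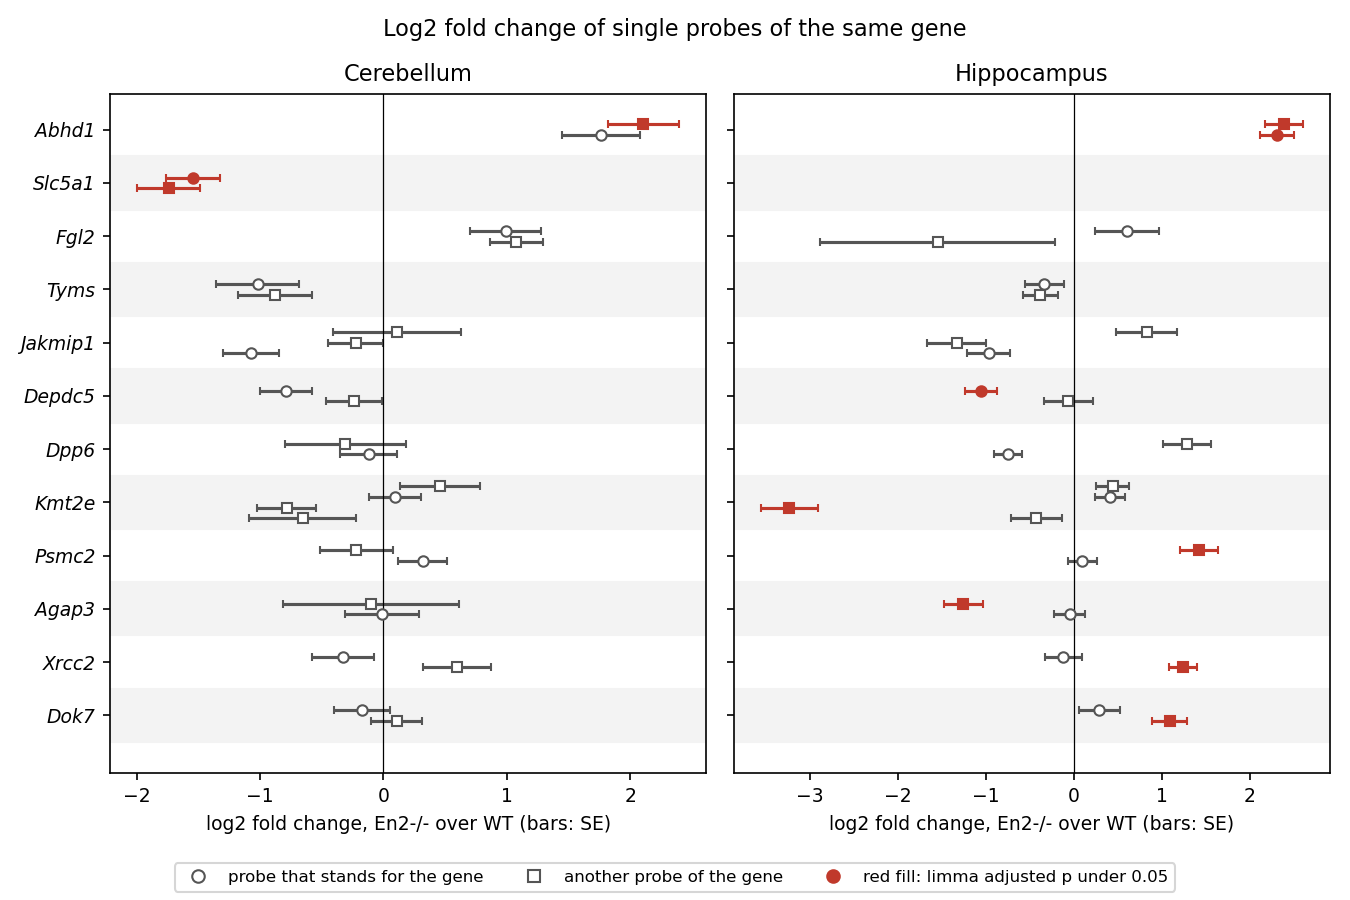
Log2 fold change (En2-/- over WT, horizontal axis, bars are SE) of each tested probe of 12 members, with the cerebellum on the left and the hippocampus on the right; circles are the probe that stands for the gene, squares are its other probes, and red marks a limma adjusted p under 0.05 over all probes. The Abhd1 probes lie together in both tissues, while those of Jakmip1, Dpp6 and Kmt2e lie on both sides of 0 in the hippocampus.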

How the data were processed

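The authors deposited, for each of 12 arrays, the scanner software's processed signal intensity of every spot on a linear scale (Feature Extraction 10.7.3.1), already corrected for background, with flags, gene names and mm9 positions. Deposited beside them were the authors' own log2 values, which they filtered and quantile normalized with Agi4x44PreProcess and which serve here as an alternative. Depth does not apply to arrays, and their number limits the precision.

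Left out were control spots and those flagged as outliers (110 to 331 per array). The intensities were log2 transformed and quantile normalized over the 12 arrays, and spots of a probe were averaged. Gene names of the 34891 named probes came from the annotation in the cerebellum files, updated through RefSeq (18006 names matched by symbol, 1681 by accession, 339 by an older symbol, 1160 kept as in the files), and 6283 probes had none. The probe with the highest mean over all arrays stood for its gene. Genes needed values on at least 2 arrays per genotype. The rank product (100 permutations) was written in Python 3.11.15 (scipy 1.17.1, pandas 2.3.3, numpy 2.4.6), and limma 3.58.1 ran in R 4.3.3 (lmFit and eBayes, Benjamini-Hochberg adjustment). Both were tested on simulated data. Figures used matplotlib 3.10.9. Where a group was on no array well above background, a bound stands for the fold change: the mean of the bright group against, per array, the higher of the dim probe's own value and the lowest signal well above background.

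Groups came from the titles and genotype labels. The methods give 3 mice per genotype, which the labels do not tie to single arrays, so limma p-values measure the spread between these samples. The rank product P does not measure that spread. It comes from permuting the gene values within each array, which treats genes as independent. Named were Abhd1 and Jakmip1, the 3 tested members nearest En2 on each side, members called in both tissues, the 5 highest and 5 lowest called members per tissue with 1 sign on all slides, members past limma, those at the window's ends, and up to 4 of each role list by lowest p. Fgl2, Crygn, E330037M01Rik, Otof, Tyms and the genes and transcript known by single probes (Psmc2, Agap3, Xrcc2, Dok7 and NAP045951-1) were named after their values were seen. The members and lists were chosen with earlier results of these data known. Alternatives were 75th percentile scaling, normexp background correction (offset 50), the deposited log2 values, other filters, the mean over probes, the percentage of false prediction of the rank product, a window of 5 Mb, the replicate number as a block and each array left out. The normexp fit of single probes was added after the data were seen. Mouse strain sequence differences were not analysed here.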

Additional observations from a re-analysis of the deposited data

How the results depend on the processing

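Counts moved with the processing, while the signs of called members hardly did, but many settings could not turn a sign. No called member had overlapping groups, so leaving out 1 array keeps its sign. Settings that change only the filter reuse the same values. Of 328 values of the 28 rank product calls under alternatives that tested them (the block has no rank product), 268 kept direction and call, 59 lost the call and 1 turned, Depdc5 in the hippocampus with the mean over probes (0.073). That mean takes in every probe of a gene, with or without signal well above background, and the part of each probe was not tested. By the rank product, a percentage of false prediction under 0.05 left 6 cerebellar and 5 hippocampal members, and a window of 5 Mb left 10 of the 17 cerebellar calls by construction. By limma, the cerebellar count of 2 became 1 with probes well above background on all 6 arrays, 0 without a filter on dim probes and 1 in the 5 Mb window, and the hippocampal count of 5 became 2 without that filter. With each array left out in turn, the rank product called 15 to 19 cerebellar members, 7 to 9 hippocampal ones and 2 to 4 in both tissues, and limma 1 to 4 and 1 to 3; the 7 came without WT replicate 2 or without En2-/- replicate 2. Limma passed 4 cerebellar members without WT replicate 3 (Ccdc146, Gm5067, Slc5a1 and Jakmip1) and 1 without WT replicates 1 or 2 or En2-/- replicates 1 or 3. In the hippocampus it passed 1 without WT replicate 1, WT replicate 2 or En2-/- replicate 3. The 2 in both tissues came without hippocampal WT replicate 2, En2-/- replicate 1 or En2-/- replicate 3, where Jakmip1 was lost. Gm5067 leaves the test where all 6 arrays must be well above background. Under normexp correction and under the deposited log2 values, limma passed Drc1 in place of Slc5a1 and Dpp6 in place of hippocampal Gm5067, and the hippocampal rank product calls split 5 higher and 5 lower instead of 4 and 7. Through all 12 settings the call held for 2700038G22Rik, E330037M01Rik, Abhd1, Slc5a1 and Psapl1 in the cerebellum, and for Abhd1, Gckr and Mrpl33 in the hippocampus. Same-numbered arrays shared a slide but did not deviate together (cerebellar r -0.057, 0.111 and 0.0018, hippocampal r -0.198, 0.092 and -0.088). With the replicate number as a block, limma passed 2 members in the cerebellum (Gm5067 and Abhd1, with Abhd1 at adjusted p = 0.0333 and Slc5a1 at 0.0509) and 2 in the hippocampus (Abhd1 and Gm5067), and no interaction, so that Slc5a1, Add1, Depdc5 and Mrpl33 lost their limma call and Abhd1 gained one in the cerebellum. No interaction passed with any array left out. Dim probes limit several calls, since values near background have no firm fold change.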
